A study of Mus musculus with 5 samples.

Results

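The cells described here are the C1qtnf3-high cells of injured mouse muscle 3 days after tibial fracture. They were taken from the d3 fracture library as cells with 350 to 8000 detected genes, under 20% of UMIs (unique molecular identifiers, each standing for 1 captured transcript) on mitochondrial genes, at least 5000 UMIs in all, and at least 3 UMIs of C1qtnf3 per 10000 UMIs. By this rule there were 574 C1qtnf3-high cells among 4907 cells of the library with that filter, and among 23833 such cells in all 5 libraries. They were compared with the 2394 cells of the same library and filter that had 0 UMIs of C1qtnf3, called C1qtnf3-zero, and the 1939 cells between both classes were called intermediate. UMIs of C1qtnf3 itself chose the classes, so the level of that gene is given as a description only.

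The study sorted GFP+ cells by flow cytometry from the skeletal muscle of Prx1Cre;mTmG mice on a C57Bl/6 background, aged 10 to 14 weeks, and prepared 1 droplet 3′ library per condition from 2 pooled mice. The conditions were no injury (d0 uninjured), 3 and 5 days after a non-stabilized tibial fracture (d3 fracture, d5 fracture), and 3 and 5 days after polytrauma, in which the same fracture was combined with a mechanical injury of the adjacent muscle (d3 polytrauma, d5 polytrauma). In these mice Prx1-Cre switches a membrane Tomato reporter to membrane GFP in the limb mesenchyme and its descendants, so the controls carry the same alleles, and other cells enter a library only as contaminants of the sort or as doublets. With 1 library per condition there is no replicate of a condition, and 2 mice in a library cannot be told apart.

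C1qtnf3 encodes a secreted protein of the C1q and tumour necrosis factor-related family, also called CTRP3 or cartonectin, known from growth cartilage and fat. After a fracture, mesenchymal progenitors of the periosteum and of the surrounding muscle divide, lay down a fibrous matrix, and in part become cartilage that bone later replaces. The muscle progenitors, called fibro-adipogenic or mesenchymal progenitors (FAP/MP), are usually recognised by Pdgfra, Ly6a (Sca-1) and Cd34, and they are also a known source of chemokines after injury. The mouse gene lies at chr15:10952332-10980150 on the plus strand of GRCm38 (mm10).

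The d3 fracture library held 6229 barcodes and 100403837 UMIs, and 6086 barcodes passed the filter on genes and mitochondrial UMIs. The C1qtnf3-high cells had a median of 17430.5 UMIs and 3361.5 genes, against 18651 UMIs and 3458 genes in C1qtnf3-zero cells and 20317 UMIs in intermediate cells. The median mitochondrial share was 2.03% in C1qtnf3-high and 1.98% in C1qtnf3-zero cells. By these medians neither depth nor mitochondrial share set the classes far apart. Gene counts with C1qtnf3-zero cells matched on UMI totals are given below.

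C1qtnf3 counts formed a continuous range with no gap at the threshold. A C1qtnf3-high cell had a median of 9 UMIs of the gene and a median rate of 4.84 per 10000 (quartiles 3.69 and 7.22, highest 33.2). The cell nearest above the threshold had 3.004 per 10000 and the nearest below had 2.999. There were 188 C1qtnf3-high cells between 3 and 4 per 10000 and 334 intermediate cells between 2 and 3, while 55 cells reached 10 or more. The class is a range cut from the level of 1 gene, and it is not treated here as a cell type. It held 56.0% of the C1qtnf3 UMIs of the filtered cells. Such counts have a floor. After each cell was thinned to 5000 UMIs, 28.9% of all 4907 cells (median depth 19272 UMIs) had a C1qtnf3 UMI, and 11 of the 47 cells with UMIs of at least 2 hematopoietic markers (23.4%, exact binomial 95% interval 12.3 to 38.0, median depth 19298 UMIs) had one too. Of the 149 cells with UMIs of at least 2 mural markers (median depth 21395 UMIs) 16.1% (10.6 to 23.0) had one. With at least 2 endothelial markers it was 36.7% (19.9 to 56.1) of 30 cells. With at least 2 Schwann and perineurial markers it was 41.8% (38.3 to 45.3) of 771 cells. Of the 47 cells with hematopoietic markers all but 2 also had a UMI of a FAP/MP marker, and neither of these 2 had a C1qtnf3 UMI, so free RNA and doublets cannot be told apart here. Of the 149 cells with mural markers, 2 had no UMI of a FAP/MP marker. The study lists pericytes among the Prx1-derived cells, so these cells are a limited measure of background. A single C1qtnf3 UMI could be background and was not read as expression. No C1qtnf3-high cell had 1 UMI, 5 had 2, 20 had 3, and 528 had 5 or more.

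The share of C1qtnf3-high cells differed between libraries, and these shares are given side by side without a test because each condition has 1 library. In the d3 fracture library it was 11.7% (exact binomial 95% interval 10.8 to 12.6, which covers counting error only). By the same rule it was 0.871% (8 of 918) in the d0 uninjured library, where the minimum of 5000 UMIs left out 4449 of 5367 retained cells (1179 of 6086 in d3 fracture), 1.13% (65 of 5744) in the library labelled d5 fracture, 51.8% (732 of 1414) in the library labelled d3 polytrauma and 23.1% (2506 of 10850) in the d5 polytrauma library. The C1qtnf3 level over all retained cells was 6.74 CPM (UMIs of the gene scaled to 1e+06 UMIs in all) in d0 uninjured, 107 in d3 fracture, 12.8 in d5 fracture, 950 in d3 polytrauma and 207 in d5 polytrauma.

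**Figure D1:**
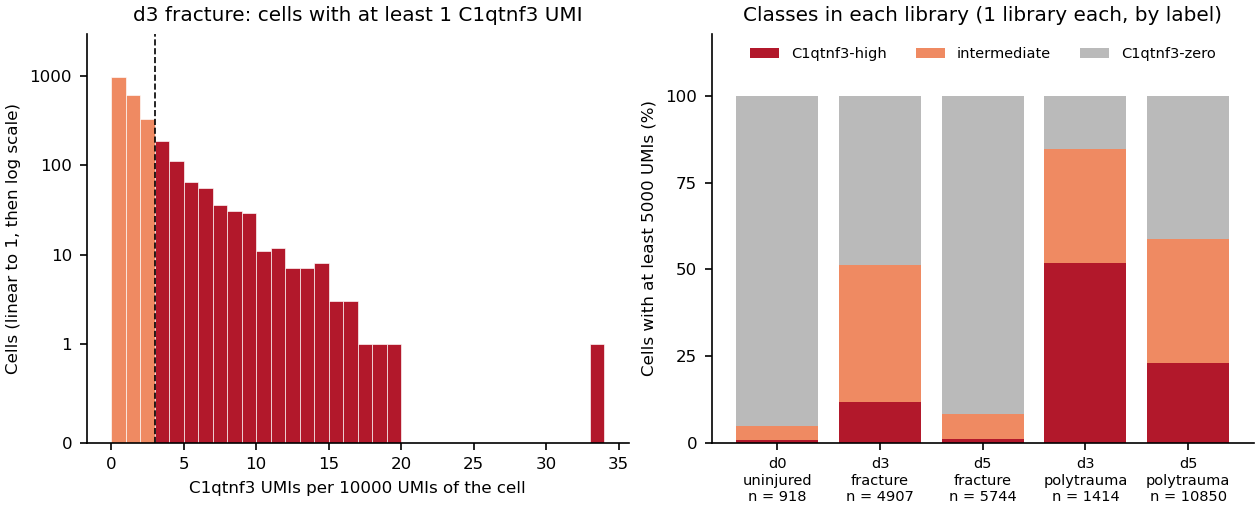
Left, number of d3 fracture cells with at least 1 C1qtnf3 UMI by C1qtnf3 UMIs per 10000 UMIs, with the threshold of 3 as a dashed line; the cells in red are the 574 C1qtnf3-high cells. Right, percent of filtered cells in each class in the 5 libraries by their labels, where C1qtnf3-high cells make up 11.7% of d3 fracture and 51.8% of the library labelled d3 polytrauma.

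The labels of the d5 fracture and d3 polytrauma libraries need care. The cell numbers that the study gives for its conditions match these libraries only when both labels are exchanged. The library labelled d3 polytrauma had 1523 CPM of the cartilage collagen gene Col2a1, and 0.135 CPM was found in the one labelled d5 fracture. The libraries are named here as deposited. The d3 fracture library is not touched by this, and the fit across other libraries keeps each library as its own block, so an exchange of labels leaves it unchanged. Some barcodes also occur in more than 1 library: 567 of the d3 fracture barcodes were shared, 508 of them with the library labelled d5 fracture and 405 with d0 uninjured, but only 11 of the 574 C1qtnf3-high and 47 of the 2394 C1qtnf3-zero cells carried one, and without shared barcodes the counts of genes given below were 106 higher and 57 lower. In the library labelled d3 polytrauma 944 barcodes were shared with d5 polytrauma, among them those of 474 of its 732 C1qtnf3-high cells (64.8%) and 83 of its 216 C1qtnf3-zero cells (38.4%). The fit across other libraries was not repeated without shared barcodes. In d5 polytrauma 14 of the shared barcodes had at least 5000 UMIs after the filter, and 4 C1qtnf3-high and 4 C1qtnf3-zero cells carried one.

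Which genes set C1qtnf3-high cells apart in the d3 fracture library was described from the UMIs of all cells of a class summed per gene. A gene entered when the mean of both classes was at least 5 CPM, which 8227 genes other than C1qtnf3 did. Of these, 104 genes (1.26%) were at least 2-fold higher and 58 (0.705%) at least 2-fold lower in C1qtnf3-high cells, and the median log2 ratio over all genes was -0.01, with 3951 ratios above 1 and 4276 below, beside which the counts for gene lists are to be read. These are ratios within 1 library, given with exact 95% counting intervals and without a p-value, since cells of 1 library are not replicates. Without cells with a UMI of the division genes Mki67 or Top2a the balance turned, with 84 genes higher and 90 lower. With C1qtnf3-zero cells matched on UMI totals 79 genes were higher and 61 lower. Leaving out the 5% of cells with the most UMIs gave 91 and 64. Among the 20 named higher genes were Acan, Comp and Col11a1 of the cartilage list, Fmod and Tnmd of the tendon list, and Mfap4, Fbln5 and Eln of the elastic fibre list, and among the 15 named lower genes were Ccl11, Cxcl14, Cxcl5, Il33, Il6 and Csf1 of the chemokine and cytokine list.

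Acan, which encodes aggrecan, the large proteoglycan of cartilage, had the highest ratio of the genes with a mean of at least 20 CPM. It was at 129 CPM in C1qtnf3-high, 30.4 in intermediate and 9.72 in C1qtnf3-zero cells, a 13.3-fold difference (interval 11.9 to 14.8). Its log2 ratio of 3.73 was 2.73 against all other cells and 4.31 at a threshold of 5 per 10000. Of its 1328 UMIs in the class, 595 (44.8%) came from the 42 cells of a cluster that Acan leads (cluster 6 below), and outside that cluster it was at 78.6 against 8.86 CPM, 8.87-fold. Thinned to 5000 UMIs, 25.1% of C1qtnf3-high and 4.34% of C1qtnf3-zero cells had an Acan UMI, and 10.6% (3.55 to 23.1) of the 47 cells with hematopoietic markers did. In the 149 cells with mural markers it was 10.1% (5.74 to 16.1). The share in C1qtnf3-high cells lay above both intervals. These comparison cells may include doublets with mesenchymal cells, and those with mural markers may be Prx1-derived pericytes. Both are thus a limited measure of free RNA. The cartilage list of 14 genes had 5 members past the expression filter, of which 4 were at least 2-fold higher and none was lower (median log2 ratio 1.77). A filter on the mean of both classes favours genes high in 1 of them, so these counts are a description. Besides Acan these were Col11a1, a minor collagen of cartilage fibrils, at 87.7 against 25.9 CPM, Comp, a pentameric matrix protein of cartilage and tendon, at 125 against 36.7 CPM, and Chad (chondroadherin) at 16.4 against 1.83 CPM. Sox9, the transcription factor that directs cartilage formation, was at 130 CPM in C1qtnf3-high and 79.8 in C1qtnf3-zero cells, a log2 ratio of 0.70 (0.61 to 0.79).

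Other cartilage genes stayed below the expression filter at day 3 after fracture. Col2a1 had 47 UMIs among the C1qtnf3-high and 12 among the C1qtnf3-zero cells, which is 4.57 and 0.26 CPM, and after thinning 2 C1qtnf3-high cells had a Col2a1 UMI. Sox6 was at 2.43 against 0.24 CPM, Matn3 at 7.48 against 1.12 CPM and Col9a1 at 5.64 against 0.56 CPM. All 9 cartilage genes below the filter had a ratio above 1, on few UMIs. Of 11 osteogenic genes 2 passed the filter, Runx2 at 39.36 against 34.99 CPM and Spp1, which was lower. Below the filter, Ibsp, Bglap and Dmp1 had 0 UMIs in C1qtnf3-high cells, while Alpl was at 6.80 against 2.37 CPM and Sp7, a transcription factor of bone-forming cells, had 10 UMIs against 4.

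Tendon genes were higher too. Of 9 tendon genes 6 passed the filter and 5 of these were at least 2-fold higher, with a median log2 ratio of 1.602. The lists overlap, so their counts are not independent. Comp is in both the cartilage and the tendon list, and Fmod is also in the small leucine-rich proteoglycan list. Fmod, which encodes fibromodulin, a proteoglycan that binds collagen fibrils, was at 324 CPM in C1qtnf3-high, 99.0 in intermediate and 68.6 in C1qtnf3-zero cells (4.71-fold, 4.49 to 4.95). Of its 3329 UMIs in the class, 1243 (37.3%) came from cluster 5 and 963 (28.9%) from cluster 6 (both below). In cluster 2 Fmod was at 88.1 against 48.9 CPM (1.80-fold). Tnmd (tenomodulin), a membrane protein of tendon cells, was at 100.4 against 30.8 CPM, with 29.9 CPM in intermediate cells. Of its 1033 UMIs in the class, 686 came from the 41 cells of cluster 5 (below), and in cluster 2, with 237 cells of the class, it was at 16.4 against 17.7 CPM. Without cells with a UMI of Acan the log2 ratio of Tnmd was 0.99, under 2-fold, against 1.71 with them. Thbs4, a thrombospondin of tendon and muscle attachment, was at 425 against 150.2 CPM. Scx, the tendon transcription factor scleraxis, stayed below the filter with 82 UMIs in C1qtnf3-high and 48 in C1qtnf3-zero cells, 7.97 against 1.03 CPM.

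Within the class, Acan and Tnmd were looked at in the same cells. After thinning, 144 C1qtnf3-high cells had an Acan UMI, 87 had a Tnmd UMI and 27 had both, and Tnmd was found in 18.8% (12.7 to 26.1) of the cells with Acan and 13.95% (10.8 to 17.6) of those without, intervals that overlap. In C1qtnf3-zero cells Tnmd was found in 19.2% (12.2 to 28.1) of cells with Acan and 7.34% (6.30 to 8.48) of cells without. A cell without a UMI at this depth may still express the gene. Fmod was found in 78.2% of the C1qtnf3-high cells with Tnmd and in 30.0% of those without, and in 52.1% of those with Acan and 32.3% of those without. In C1qtnf3-zero cells Fmod was found in 55.9% of cells with Tnmd and 10.2% of cells without. Of the cells with hematopoietic markers 12.8% had Fmod, and of those with mural markers 14.1%. Tnmd was found in 8.51% (2.37 to 20.4) of the cells with hematopoietic markers and 9.40% (5.23 to 15.3) of those with mural markers. The 13.95% and 7.34% of cells without Acan lay inside both intervals, and the 18.8% and 19.2% of cells with Acan inside the first only. Shares of cells alone thus do not set Tnmd apart from background in cells without Acan. The comparison cells may also include mesenchymal cells. In cluster 5 (below) Tnmd was at 1073 CPM in the 41 C1qtnf3-high and 691 CPM in the 93 C1qtnf3-zero cells.

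**Figure D2:**
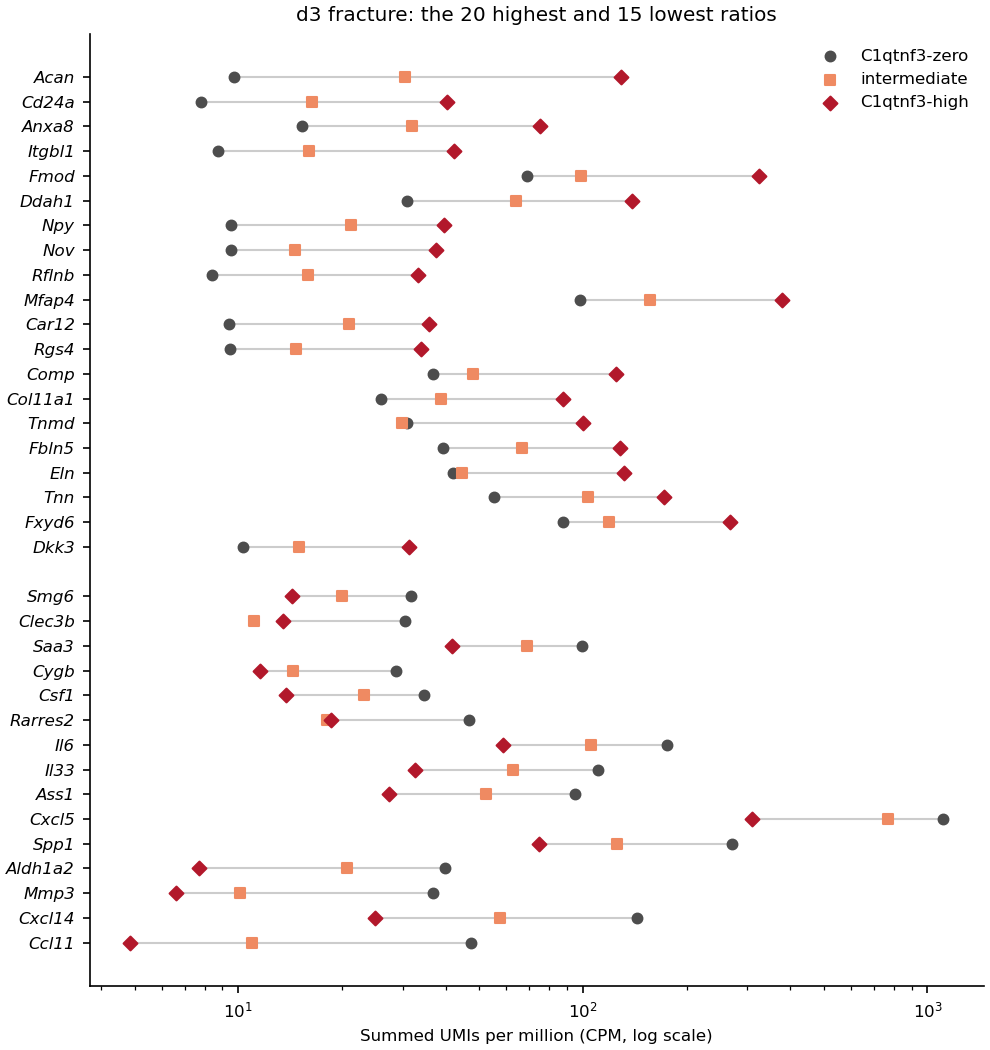
CPM (log scale) of the 20 genes with the highest and the 15 with the lowest ratio, in C1qtnf3-high (diamonds), intermediate (squares) and C1qtnf3-zero cells (circles) of d3 fracture. Intermediate cells lie between both classes for most genes, as for Acan at 129, 30.4 and 9.72 CPM, and outside them for Tnmd, Clec3b and Rarres2.

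Genes of the general fibrous matrix were higher by smaller ratios. Of 9 fibrillar collagen genes 8 passed, and 7 of these had a ratio above 1 with a median log2 ratio of 0.43. Col1a1, the main chain of type I collagen, was at 7169 against 4775 CPM (1.501-fold, 1.49 to 1.51) and Col3a1 at 5441 against 4174 CPM. Col5a3 was the member in the other direction, at 109 against 140.4 CPM. Among collagen VI and the collagens that associate with fibrils, 8 of the 9 that passed had a ratio above 1 (median 0.77), with Col8a2 at 32.8 against 6.08 CPM, and Col12a1, a collagen of tendon and fibrous tissue, at 372 against 214 CPM.

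All 8 small leucine-rich proteoglycan genes that passed were higher in C1qtnf3-high cells (median 0.81). These proteins coat collagen fibrils and control their thickness. Aspn (asporin) was at 724, 378 and 257 CPM in C1qtnf3-high, intermediate and C1qtnf3-zero cells (2.81-fold, 2.73 to 2.90) and Lum (lumican) at 541 against 259 CPM. Dcn (decorin) had the smallest ratio of the list, at 1529 against 1118 CPM.

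Of the 14 matricellular genes, all of which passed, 12 had a ratio above 1 (median 0.55) and 4 were at least 2-fold higher. Postn, which encodes periostin, was at 1907 CPM in C1qtnf3-high, 1174 in intermediate and 788 in C1qtnf3-zero cells (2.42-fold, 2.38 to 2.46). Tgfbi was at 434 against 211 CPM, and Cthrc1, a secreted collagen triple-helix repeat protein induced in injured tissue, at 1745 against 899 CPM. Spp1, which encodes osteopontin, went the other way, at 74.4 CPM in C1qtnf3-high, 126 in intermediate and 270.3 in C1qtnf3-zero cells (3.63-fold lower, 3.37 to 3.91).

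Elastic fibre genes followed the same order. All 14 passed, 11 had a ratio above 1 (median 0.49) and 4 were at least 2-fold higher. Eln, the gene of elastin, was at 132 CPM in C1qtnf3-high and 42.0 in C1qtnf3-zero cells, with 44.7 in intermediate cells. Mfap4, a microfibril-associated glycoprotein, was at 378 against 98.2 CPM (3.85-fold, 3.68 to 4.02), Mfap5 at 988 against 447 CPM and Fbln5, a fibulin needed for elastic fibre assembly, at 128 against 39.4 CPM. Efemp1, another fibulin, was at 25.6 against 42.7 CPM.

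The machinery that processes and secretes collagen differed little. Of 18 genes of collagen-modifying enzymes 17 passed and none reached 2-fold (median 0.27), although Serpinh1, the collagen chaperone, was at 3757 against 3027 CPM. None of 15 chaperone genes of the endoplasmic reticulum reached 2-fold and 6 had a ratio above 1. Basement membrane genes had 8 of 10 ratios below 1 (median -0.17), of which Col4a1 at 4.18 against 27.7 CPM and Col4a2 at 8.07 against 31.7 CPM were at least 2-fold lower. Both are made abundantly by mural cells, the pericytes and smooth muscle cells of vessels, and the mural marker Rgs5 was at 1.85 against 35.3 CPM. The mural cells of cluster 7 below are almost absent from the C1qtnf3-high class, and their part in the Col4a1 and Col4a2 ratios was not tested.

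**Figure D3:**
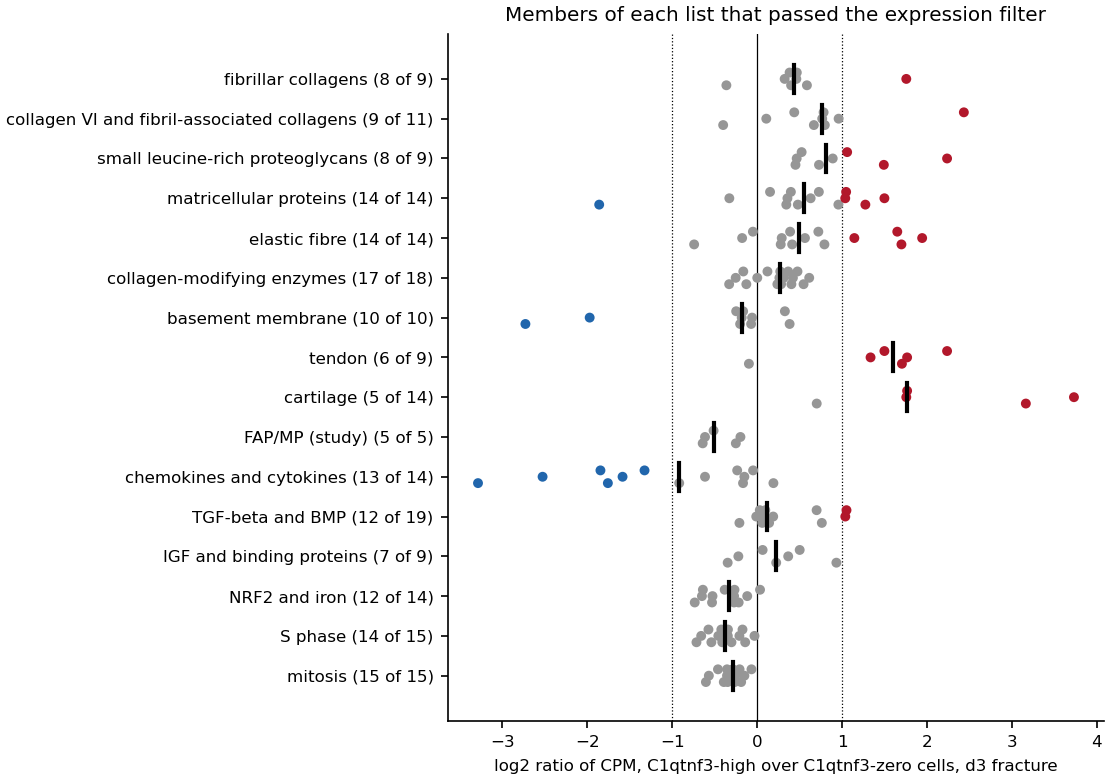
Log2 ratio of CPM, C1qtnf3-high over C1qtnf3-zero cells of d3 fracture, for each member of 16 gene lists that passed the expression filter (numbers beside each name), with the list median as a black bar. Points past 2-fold are coloured; cartilage and tendon have medians of 1.77 and 1.602, and chemokines and cytokines of -0.92.

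Chemokine and cytokine genes were lower in C1qtnf3-high cells. Of 14 genes 13 passed, 12 had a ratio below 1, and 6 were at least 2-fold lower (median -0.92). Ccl11 (eotaxin), which attracts eosinophils, was at 4.86 CPM in C1qtnf3-high, 11.0 in intermediate and 47.4 in C1qtnf3-zero cells (9.76-fold lower, 7.38 to 13.2). Cxcl14 was at 24.98, 57.6 and 144 CPM in the same order (5.76-fold lower, 5.09 to 6.55). Cxcl5, a chemokine for neutrophils, was at 309, 767 and 1110 CPM (3.59-fold lower, 3.47 to 3.73).

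The alarmin Il33 was at 32.7 against 110.5 CPM, Il6 at 58.6 against 176 CPM and Csf1, the growth factor of macrophages, at 13.8 against 34.6 CPM. The most abundant chemokine genes differed little. Of the monocyte chemokine genes, Ccl2 was at 2388 against 2468 CPM and Ccl7, the member with a ratio above 1, at 2125 against 1861 CPM. Cxcl1, a chemokine for neutrophils like Cxcl5, was at 3387 against 3800 CPM. The class was thus lower in particular members of the list rather than in its most abundant ones.

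Genes of the progenitor state were lower by small ratios. All 5 FAP/MP markers had ratios below 1 (median -0.51) and none reached 2-fold: Ly6a was at 375 against 447 CPM, Cd34 at 36.5 against 52.1 CPM, Pdgfra at 33.2 against 51.8 CPM, Cxcl12 at 219 against 336 CPM and Prrx1 at 117 against 134 CPM. Among 10 progenitor surface genes 8 passed and 6 of these had ratios below 1 (median -0.52), of which Thy1 was at least 2-fold lower at 85.4 against 186 CPM. Per cell, the 5 FAP/MP markers together had a median of 6.99 UMIs per 10000 in C1qtnf3-high and 8.35 in C1qtnf3-zero cells, and 94.9% and 96.3% of cells had at least 2 of them. The study's 5 fibroblast markers had per-cell medians of 230 (C1qtnf3-high) and 163 (C1qtnf3-zero) per 10000, and its tenocyte and chondrocyte markers had medians of 0 in both. At least 2 of the fibroblast markers were found in 100% of C1qtnf3-high and 99.9% of C1qtnf3-zero cells. UMIs of FAP/MP and fibroblast markers were thus found in nearly all cells of both classes. Their background share was not measured.

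Aldh1a2, which makes retinoic acid, was at 7.68 against 39.7 CPM, Rarres2, which encodes the attractant chemerin, at 18.6 against 46.8 CPM, and the stromelysin gene Mmp3 at 6.61 against 36.7 CPM. Of 11 adipogenic and lipid handling genes 7 passed, 6 had a ratio below 1 and 1, Apoe, was at least 2-fold lower (median -0.41). Metallothionein and ferritin genes, which bind zinc and iron, were abundant in both classes and lower in C1qtnf3-high cells: Mt1 was at 2039 against 3394 CPM and Fth1 at 2702 against 3905 CPM. In the list of NRF2 and iron genes 11 of the 12 that passed had a ratio below 1 (median -0.33).

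Growth factor genes were mixed. In the list of transforming growth factor β and bone morphogenetic protein genes, 12 of 19 passed and 2 were at least 2-fold higher (median 0.12): Ltbp1, which holds latent transforming growth factor β in the matrix, at 99.6 against 48.5 CPM, and Bmp2 at 30.0 against 14.5 CPM. Among insulin-like growth factor genes 7 of 9 passed (median 0.22), and Igf1 itself was at 496 against 259.6 CPM (1.91-fold, 1.85 to 1.97). Among platelet-derived, fibroblast and vascular endothelial growth factor genes and their receptors 9 of 13 passed, and 7 of these had a ratio below 1 (median -0.13). The 1 member at least 2-fold higher was Pdgfrl, which encodes a receptor-like protein, at 156 against 55.2 CPM.

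The other C1q and tumour necrosis factor-related genes did not share the pattern to the same degree. Of 11 family members besides C1qtnf3, 4 passed and none reached 2-fold (median 0.42). C1qtnf1 was at 18.6 against 9.48 CPM, C1qtnf2 at 35.8 against 22.6 CPM, C1qtnf6 at 248 against 219 CPM and C1qtnf12 at 49.2 against 51.8 CPM. The contractile gene Acta2 was at 798 against 737 CPM.

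Division markers were somewhat less frequent in the class, by a difference that was not tested. A UMI of Mki67 or Top2a was present in 31.5% of C1qtnf3-high and 40.0% of C1qtnf3-zero cells, and in 18.3% (15.2 to 21.7) and 22.7% (21.0 to 24.4) after thinning, where the intervals overlap. All 14 S phase genes that passed and all 15 mitosis genes had a ratio below 1, with medians of -0.38 and -0.29 and none at 2-fold. With C1qtnf3-zero cells matched to the C1qtnf3-high cells on UMI totals these medians were -0.19 and -0.069. The other libraries did not share 1 direction: the mitosis genes summed to 949 CPM in C1qtnf3-high and 101 in C1qtnf3-zero cells of the library labelled d3 polytrauma, to 502 and 710 CPM in d5 fracture and to 829 and 1042 CPM in d5 polytrauma.

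Several of the named genes also differed along the range of C1qtnf3. Across C1qtnf3-zero cells, intermediate cells, and C1qtnf3-high cells at 3 to 5 (301 cells), 5 to 10 (218 cells) and 10 or more (55 cells) UMIs per 10000, Acan was at 9.72, 30.4, 78.8, 173 and 281 CPM. Mfap4 was at 98.2, 156, 259, 426 and 991 CPM over these bands. Cxcl5 was at 1110, 767, 393, 223 and 114 CPM.

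Some genes were high mainly in the top band. Eln was at 42.0, 44.7, 75.7, 123 and 568 CPM, and Tnmd at 30.8, 29.9, 45.2, 128 and 363 CPM. Spp1 did not fall steadily, with 46.8 CPM at 5 to 10 and 120 CPM at 10 or more. For the 104 higher genes the median log2 ratio over C1qtnf3-zero cells was 0.56 in intermediate and 1.33 in C1qtnf3-high cells, both taken over the same C1qtnf3-zero cells that chose the genes.

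**Figure D4:**
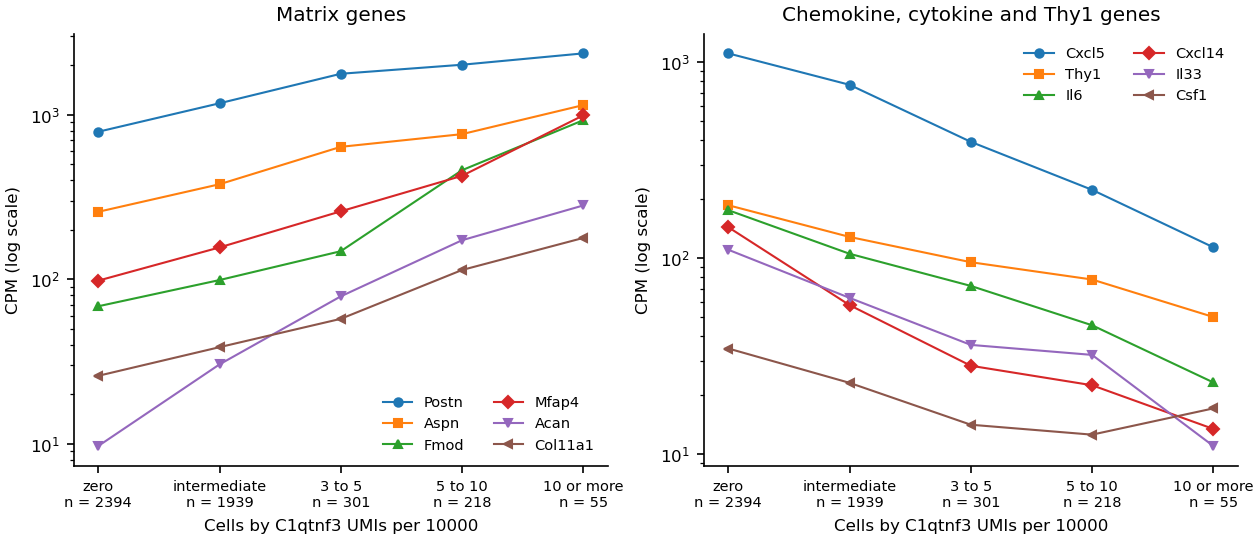
CPM (log scale) of 6 matrix genes (left) and 6 chemokine, cytokine or surface genes (right) in d3 fracture cells grouped by C1qtnf3 UMIs per 10000, each point a sum over the cells of the band. Acan goes from 9.72 CPM in C1qtnf3-zero cells to 281 CPM at 10 or more, and Cxcl5 from 1110 to 114 CPM.

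Across all 4907 cells, each thinned to 5000 UMIs, the genes whose levels ranked most like C1qtnf3 were Postn (Spearman's rho 0.29), Cthrc1 (0.28), Aspn (0.26), Mfap5 (0.24), 1500015O10Rik (0.24), Csrp2 (0.24), Fn1 (0.24), Serpinf1 (0.23), Tmsb4x (0.23) and Mfap4 (0.20), out of 4275 genes. These are weak correlations over cells of 1 library, which include the cells that chose the class, and they are given as a description.

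To see where in the library the class lies, all 4907 cells were clustered on genes other than C1qtnf3, and the clusters are called by number and leading genes. C1qtnf3-high cells were in 7 of 8 clusters. Cluster 2, led by Ddah1, Fam13c and Slc7a2, held 237 of them (41.3%) but also 407 C1qtnf3-zero cells. This largest share depended on the clustering resolution, which was 0.5. It was 50.7% at resolution 0.3 (6 clusters) and 28.6% at 0.8 (10 clusters). Cluster 1, led by the division genes Nusap1 and Top2a, held 115.

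The densest was the small cluster 6 of 81 cells, led by Acan, Spink6, Npy and Anxa8, where 42 cells (51.9%, 40.5 to 63.1) were C1qtnf3-high and 7 C1qtnf3-zero. Cluster 5 of 182 cells, led by Chad, Kera, Angptl7, Ptx4 and the tendon gene Tnmd, had 41 C1qtnf3-high cells (22.5%, 16.7 to 29.3). Both clusters together held 83 of the 574 cells, so most of the class lay elsewhere. Cluster 7, led by the mural genes Rgs5 and Myh11, had 1 C1qtnf3-high among 51 cells, and cluster 8, led by Lyz2 and Cd74, had 0 among 5.

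The gene differences were also seen inside clusters. In the 5 clusters with at least 20 cells of both classes, Acan, Fmod, Mfap4, Comp, Eln and Col11a1 were higher, and Cxcl5, Cxcl14, Il33 and Il6 lower in the C1qtnf3-high cells of each one, with counting intervals clear of 0. The log2 ratio of Acan ranged from 2.21 to 3.50 over these clusters and that of Cxcl5 from -3.56 to -1.60. Others were small in some clusters, where Fmod ranged from 0.38 to 2.79, Col11a1 from 0.52 to 1.86 and Comp from 0.59 to 3.42. These genes were named for their ratio in the same cells, so this is a description. Tnmd was higher in 4 of 5, Rarres2 was lower in 4 of 5, Spp1, Ass1 and Saa3 were lower in 3 of 5, Npy was higher in 2 of 5, and Clec3b was lower in 2 of 5, with a log2 ratio of 2.81 in cluster 4.

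Summed levels of hematopoietic, mural, endothelial, myogenic, erythroid and adipocyte markers were low in both classes. The 8 hematopoietic markers summed to 9.14 CPM in C1qtnf3-high and 21.8 in C1qtnf3-zero cells, with Lyz2 the most abundant and Ptprc and Itgam at 0 in C1qtnf3-high cells. The 7 mural markers summed to 13.9 and 67.9 CPM, with Cspg4 the most abundant in the high class, and the 6 endothelial markers to 10.2 and 9.50 CPM, with Egfl7 the most abundant and Emcn at 0 in C1qtnf3-high cells. Myogenic, erythroid and adipocyte markers summed to 0.29, 1.85 and 0.10 CPM in C1qtnf3-high cells. The Schwann and perineurial list summed to 109 and 87.8 CPM, but Sox10 was at 0 in C1qtnf3-high cells and Slc2a1, the most abundant member, is also a glucose transporter gene of other cells. Of this list S100b (20.3 against 7.28 CPM) and Moxd1 (21.0 against 4.16 CPM) were at least 2-fold higher. They are not read here as a sign of Schwann or perineurial cells in the class. At least 2 markers of the list were found in 139 C1qtnf3-high cells (24.2%) and 241 C1qtnf3-zero cells (10.1%). Without cells with at least 2 markers of any of these types, which left 414 C1qtnf3-high and 2026 C1qtnf3-zero cells, 116 genes were higher and 52 lower, and the log2 ratio of Acan was 3.81.

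A test was possible only in the libraries that the rule had not used. The same classes were formed in each other library, UMIs were summed per library and class, and edgeR's quasi-likelihood test was fitted with library as a block over the 3 libraries with at least 20 cells of each class (d5 fracture, d3 polytrauma and d5 polytrauma by label). In the library labelled d3 polytrauma the classes differed in depth, with a median of 38608 UMIs in the C1qtnf3-high and 21839 in the 216 C1qtnf3-zero cells, and the part of this in the calls was not tested within that library. With 2 residual degrees of freedom, 60 of 14392 genes (0.417%) were higher and 53 (0.368%) lower in C1qtnf3-high cells at an adjusted p (Benjamini-Hochberg) under 0.05. With RLE in place of TMM scaling 34 of the 60 and 5 of the 53 were called, and with the library block left out edgeR called 0 genes in each direction (258 higher and 376 lower at an unadjusted p under 0.05). Of the 104 genes at least 2-fold higher in d3 fracture 19 were called higher there (18.3% of that list and 31.7% of the 60), and 103 had a fitted change above 0. Of the 58 lower genes 15 were called lower (25.9% of that list and 28.3% of the 53). No gene of either list was called in the other direction.

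Acan rose in the fit by 4.06 on the log2 scale (SE 0.318, adjusted p = 9.6e-04, edgeR). It was at 77.3 against 2.18 CPM in the library labelled d5 fracture, 1099 against 78.4 CPM in d3 polytrauma and 267 against 19.4 CPM in d5 polytrauma. The high class was above the zero class in each of these libraries.

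Of the 20 named higher genes 11 passed the edgeR test, beside 0.417% of all genes called higher. Besides Acan, Cd24a, a small surface glycoprotein, rose by 3.42 (SE 0.317, edgeR adjusted p = 0.0021) and Anxa8 by 2.45 (SE 0.241, edgeR adjusted p = 0.0029). Fmod rose by 2.96 (SE 0.411, edgeR adjusted p = 0.015) and Col11a1 by 2.54 (SE 0.329, edgeR adjusted p = 0.012). Fmod was at 461 against 19.7 CPM in d5 fracture, 526 against 129 CPM in d3 polytrauma and 223 against 31.1 CPM in d5 polytrauma. Tenascin-N (Tnn), Comp, Tnmd, Ddah1, Car12 and Rflnb were the others. Mfap4 did not pass (log2 change 1.27, SE 0.577, edgeR adjusted p = 0.54), with a log2 ratio of -0.37 in the library labelled d3 polytrauma, nor did Eln (1.13, SE 0.726, edgeR adjusted p = 0.83), with -1.38 there. Nov was at a log2 change of 0.60 (edgeR adjusted p = 0.96) and a log2 ratio of -1.03 in that library, and Npy had -0.53 there and in the one labelled d5 fracture. Postn missed the threshold at a log2 change of 1.29 (SE 0.310, edgeR adjusted p = 0.10).

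Of the 15 named lower genes 8 passed, beside 0.368% of all genes called lower. Cxcl14 fell by 3.21 on the log2 scale (SE 0.403, edgeR adjusted p = 0.011), from 122 to 28.4 CPM in d5 fracture, 821 to 40.7 CPM in d3 polytrauma and 236 to 38.5 CPM in d5 polytrauma. Il33 fell by 2.40 (SE 0.281, edgeR adjusted p = 0.0077), Aldh1a2 by 3.16 (SE 0.394, edgeR adjusted p = 0.011) and Cxcl5 by 2.16 (SE 0.355, edgeR adjusted p = 0.035). Csf1, Mmp3, Rarres2 and Saa3 also fell. Il6 (log2 change -1.91, edgeR adjusted p = 0.054), Thy1 (-1.58, edgeR adjusted p = 0.0505) and Ccl11 (-3.08, edgeR adjusted p = 0.090) did not pass. Spp1, Ass1 and Smg6 had log2 ratios of 0.83, 0.13 and 0.04 in the library labelled d3 polytrauma, and Clec3b had 0.18 in the one labelled d5 fracture.

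**Figure D5:**
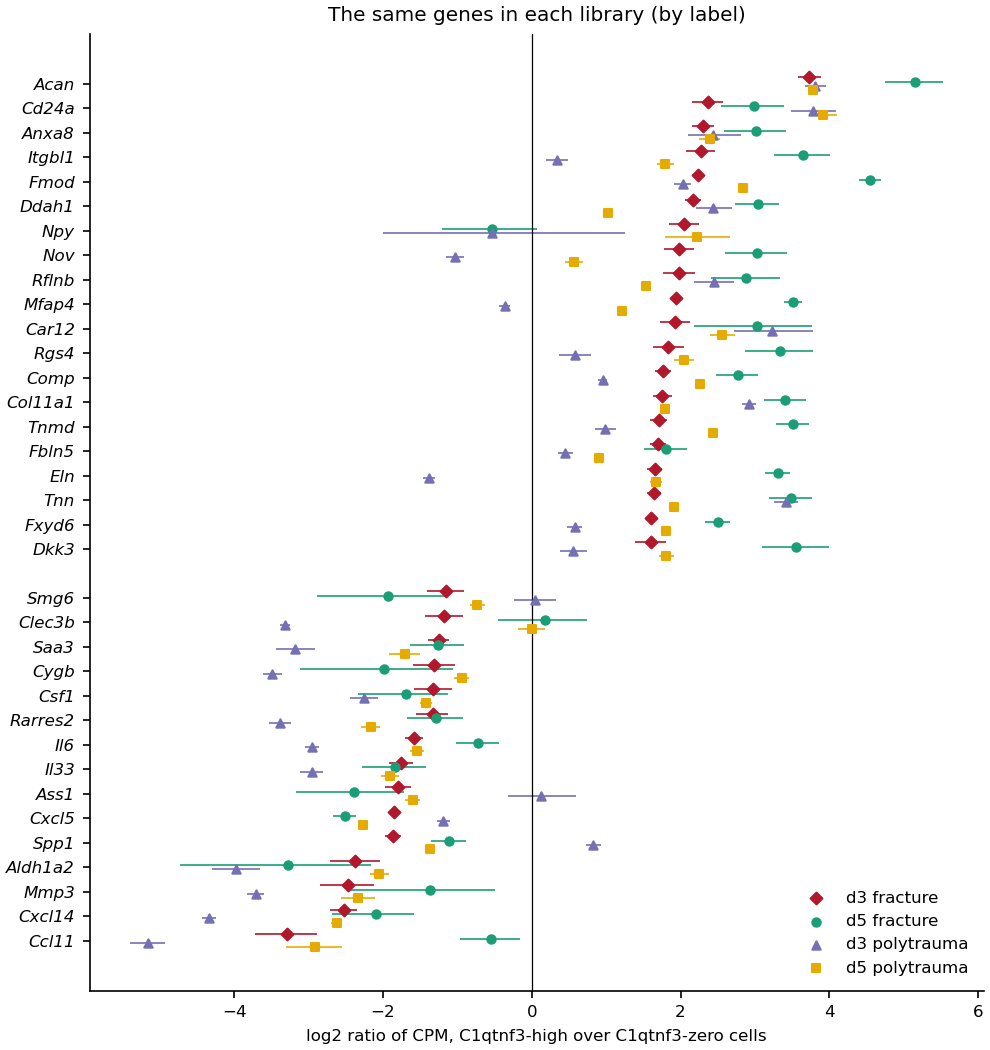
Log2 ratio of CPM, C1qtnf3-high over C1qtnf3-zero cells, of the same 35 genes in 4 libraries by their labels, with exact 95% counting intervals as lines. Acan lies between 3.73 and 5.15 in each, while Eln, Nov, Npy and Mfap4 are below 0 in the library labelled d3 polytrauma.

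Over all 14392 genes tested the fit called 0.417% higher and 0.368% lower. By list, it called higher 11 of 14 cartilage, 4 of 9 tendon and 2 of 9 small leucine-rich proteoglycan genes. Of 14 chemokine and cytokine genes it called 4 lower. Comp counts in both the cartilage and the tendon list, and the lists were chosen with earlier results of these data known. No member of the fibrillar collagen list other than Col11a1 was called, nor any of the 14 elastic fibre genes or of the 5 FAP/MP markers. The cartilage calls include genes near 0 in d3 fracture. Hapln1 rose by 6.67 (SE 0.451), Ucma by 6.23 (SE 0.422), Cnmd by 5.35 (SE 0.485) and Col2a1 by 6.29 (SE 0.664, edgeR adjusted p = 0.0038). Hapln1, Cnmd and Col2a1 had 0 UMIs in the C1qtnf3-high cells of the library labelled d5 fracture. Their calls thus rest on the libraries labelled d3 polytrauma and d5 polytrauma, and the first of these labels is in doubt (above). Ucma had 1 UMI in C1qtnf3-high and 4 in C1qtnf3-zero cells of the library labelled d5 fracture. The size of such fitted changes depends on the prior count. Ibsp, a bone matrix protein gene, also rose by 5.46 (SE 0.387, edgeR adjusted p = 0.0010), while it had 0 UMIs in C1qtnf3-high cells of d3 fracture, and Sp7 rose by 3.53 (SE 0.450, edgeR adjusted p = 0.011). In the library labelled d5 fracture Ibsp had 0 UMIs in both classes, so its call too rests on the libraries labelled d3 polytrauma and d5 polytrauma. Sp7 had 1 UMI in C1qtnf3-high and 5 in C1qtnf3-zero cells there. Of the 113 genes called, 68 did not reach the expression filter in d3 fracture.

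The fit called lower also the mural genes Pln, Myh11, Tinagl1 and Rgs5 and the endothelial genes Cdh5 and Emcn. The mural markers summed to 9.79 CPM in C1qtnf3-high and 31.6 in C1qtnf3-zero cells of the library labelled d5 fracture, 94.5 and 1153 CPM in d3 polytrauma, and 41.6 and 84.2 CPM in d5 polytrauma. Their part in the calls was not tested. Without cells with at least 2 markers of another type 46 of the 60 higher and 32 of the 53 lower genes were called. This filter kept 264 of the 732 C1qtnf3-high cells of the library labelled d3 polytrauma, so it took out much of the class there.

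The number of calls depended on single libraries. Without the library labelled d3 polytrauma 632 genes were higher and 622 lower, among them 52 of the 60 and 49 of the 53. Without d5 polytrauma 107 and 367 were called, with 48 and 43 of the same genes, and without the one labelled d5 fracture 18 and 0, all 18 among the 60.

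In the single libraries, the share of the 104 genes that was at least 2-fold higher in C1qtnf3-high cells was 75% (78 genes) in the library labelled d5 fracture, where 4.66% of tested genes were called, 61.5% (64 genes) in d5 polytrauma, where 1.84% were, and 33.7% (35 genes) in d3 polytrauma, where 7.01% were. These genes were 20.4%, 37.2% and 5.04% of the genes called in those libraries. Of the 58 lower genes 31 were at least 2-fold lower in d5 fracture (53.4%, against 3.95% of tested genes), 30 in d5 polytrauma (51.7%, against 0.986%) and 41 in d3 polytrauma (70.7%, against 9.35%). They made up 9.57%, 32.6% and 4.42% of the genes called lower there.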

How the data were processed

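The deposited files hold whole-number counts of UMIs per gene and barcode, which the authors made from 10x Chromium 3′ reads with Cell Ranger (3.1.0 in the matrix headers) on mm10; they were not normalized. Per the labels Seurat 3.1.2 was used downstream. Filters followed the study's methods (350 to 8000 genes, under 20% mitochondrial UMIs), plus 5000 UMIs. No doublet caller was run. Total UMIs per library ranged from 18247307 to 204474562. Ratios are of UMIs summed per class and divided by the class total (CPM), with exact conditional binomial intervals (95%), which cover counting error only, as do exact binomial intervals of shares. The classes of other libraries were tested with edgeR 4.0.16 (TMM, filterByExpr, library as block), where the median log2 change over all genes was -0.11. DESeq2 1.42.0 was an alternative. The ratios and the edgeR fit were tested on simulated data. Clusters came from Leiden (leidenalg 0.10.2) at resolution 0.5 on 2000 variable genes and 20 components. Genes named are the 20 highest and 15 lowest ratios at a mean of at least 20 CPM, 10 per direction in the fit, and members of 44 lists. Members and lists were chosen with earlier results of these data known. Gene symbols are those of the files.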

Additional observations from a re-analysis of the deposited data

How the results depend on the processing

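Each value rests on 1 library of 2 pooled mice, so counting intervals understate the error, and a share of the class between libraries cannot be told apart from library effects. Of 418 values of the 35 named genes over 12 alternatives none changed sign, 170 lay outside the counting interval of the reported value and 13 were under 2-fold, among them Npy (0.39) and Tnmd (0.99) without cells with a UMI of Acan, and Clec3b (-0.31) at 10000 UMIs per cell. Leaving out cells with a UMI of Acan, or of Scx, Tnmd or Kera, was chosen after the data were seen.

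At a threshold of 2 per 10000 the class made up 18.5% of cells, and the medians were 0.63 for collagen VI and fibril-associated collagens, 1.19 for tendon and 1.51 for cartilage. At 5 per 10000 it made up 5.56%, 195 genes were higher and 97 lower, and the medians were 0.50 for fibrillar collagens, 0.94 for collagen VI, 1.14 for small leucine-rich proteoglycans, 0.67 for elastic fibre, 2.22 for tendon, 2.71 for cartilage, -0.72 for chemokines and cytokines and -0.66 for mitosis. Without cells with a UMI of Mki67 or Top2a 84 genes were higher and 90 lower, and the medians were -0.69 for FAP/MP, 0.35 for fibrillar collagens, 0.59 for collagen VI, 0.58 for small leucine-rich proteoglycans, 0.47 for matricellular proteins, 1.31 for tendon and -0.74 for progenitor surface genes. Against all other cells 63 genes were higher and 31 lower, with medians of 0.36 for fibrillar collagens, 0.61 for collagen VI, 1.57 for cartilage and -0.76 for chemokines and cytokines. At a mean of at least 20 CPM, where 4260 genes were tested, 58 were higher and 18 lower, and with no filter beyond 1 UMI in each class 1429 and 630, with medians of 0.72 for collagen VI, 3.09 for cartilage and -1.07 for chemokines and cytokines.

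Without cells with a UMI of Acan the medians were -0.31 for FAP/MP, 0.52 for fibrillar collagens, 1.10 for tendon, 1.44 for cartilage, -1.06 for chemokines and cytokines, -0.26 for progenitor surface genes and -0.43 for mitosis, and without cells with Scx, Tnmd or Kera -1.32 for chemokines and cytokines. With C1qtnf3-zero cells matched on UMI totals they were 0.33 for fibrillar collagens, 0.69 for collagen VI, 0.58 for small leucine-rich proteoglycans, 1.63 for cartilage, -0.75 for chemokines and cytokines, -0.19 for S phase and -0.069 for mitosis. Without cells with 2 or more markers of another type they were 0.83 for collagen VI, 1.84 for tendon, -1.14 for chemokines and cytokines and -0.58 for mitosis. Without the 5% of cells with the most UMIs they were 0.72 for collagen VI and -1.31 for chemokines and cytokines, and at 10000 UMIs per cell 2.07 for tendon and 2.04 for cartilage. The cause of these shifts was not tested.

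In the fit across other libraries, DESeq2 called 179 genes higher and 156 lower, RLE scaling 34 and 5, no filter on low counts 273 and 332, matching on UMI totals (which left 2 libraries with 20 cells of each class) 526 and 542, leaving out cells with markers of another type 113 and 138, and leaving out dividing cells 188 and 310. With the d3 fracture library added 96 were higher and 44 lower, with 48 of the 60 and 25 of the 53 among them. With the library block left out edgeR called 0 and 0, with 258 and 376 at an unadjusted p under 0.05. Leaving out each library in turn gave 18 to 632 higher and 0 to 622 lower genes.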
